A study of Caenorhabditis elegans with 2 samples.

Results

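Binding sites that fall inside the exons of protein-coding genes on the 5 autosomes of Caenorhabditis elegans were described from a ChIP-seq experiment on the tagged transcription factor CES-1. A summit is the position of highest signal in a peak. It was kept when it lay in a coding or annotated untranslated part of any exon of a protein-coding gene. Of 4848 autosomal summits in the thresholded list, 388 met this rule, 8.0% (exact 95% interval 7.25 to 8.80). They comprised 109 summits in coding exons, 179 in 5′ untranslated exons and 100 in 3′ untranslated exons. A further 7 in exons of non-coding transcripts of protein-coding genes were set apart. Position was what chose the summits and is given as a description; signal and presence in the replicate lists were not used by the rule.

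The libraries came from 2 biological replicates of strain OP174, which has the mutation unc-119(ed3) and the insertion wgIs174, carrying ces-1 joined to the tags TY1, EGFP and FLAG and, beside it, a copy of unc-119. Whole embryos of mixed stage and mixed sex were used, and their age is recorded as unknown. Both replicates carried the same integrated transgene and the same unc-119 allele, so they form a single group. Because whole embryos were taken, a site used in a few cells and a weak site used in many cannot be told apart. No control list was analysed here. Each replicate had a relaxed list of 30000 peaks, and the pooled list thresholded by the irreproducible discovery rate (IDR), a comparison of peak ranks between replicates, held 6290 peaks, 1425 of them on X and 17 on the mitochondrial genome. The files give no read counts, so the depth is unknown.

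CES-1 is a zinc finger factor of the Snail family, a group known for binding E-box sequences and for repressing transcription. Factors of this kind are usually found at promoters, introns and intergenic enhancers. Protein-coding exons are a less usual place, since their sequence is held by the genetic code, although exons with regulatory activity are known. In C. elegans many messages are trans-spliced to a leader at the 5′ end and many genes lie close together, some in operons, so an annotated 5′ end need not be the site where transcription starts, and the end of one gene can be the upstream region of the next.

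The DNA under the strongest coding-exon summits shows what kind of sequence these sites hold. The 6 lines below give 29 bases centred on the summit (WBcel235, the ce11 build), for the strongest coding summits on chromosomes II to V whose window held no untranslated base. Each is read 5′ to 3′ on the strand of its gene, with coding bases in capitals and intron bases in lower case.
T16G1.18, chrV:12951361-12951389, plus strand: TCTCTGCGTCTCTCACTCCTACATCTGAT
unc-42, chrV:9765131-9765159, minus strand: aattttgtttgcagGTGTGGTTCCAAAAT
B0334.20, chrII:11499652-11499680, minus strand: ATGGGCTCCTTGTTATGATTCAGTTATCC
uig-1, chrV:13283150-13283178, minus strand: GCGACTCCTGTAATGAGGCGGCGTAGGAG
saeg-1, chrV:10853282-10853310, minus strand: AATTGCAAACTCAATTGAACTCGTTGAGT
mpz-1, chrII:10749852-10749880, minus strand: AGATTGGAGCAACTGCAACCACAAGgtaa
In these windows the summit of unc-42 stood on the first base of an exon, just past the splice acceptor, and that of mpz-1 lay 10 bp from the end of its exon, with the splice donor in view. The other 4 windows were coding throughout. The GC content of the 6 windows ran from 34.5% at unc-42 and saeg-1 to 62.1% at uig-1. At unc-42 the letters of the Snail-type E-box CAGGTG were present, with CAG at the end of the intron and GTG at the start of the exon.

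The E-box was sought as CAGGTG or its reverse CACCTG within 50 bp of each summit. It was present at 2 of 109 coding summits (1.83%, exact 95% interval 0.22 to 6.47), at 6 of 179 5′ untranslated summits (3.35%, 1.24 to 7.15) and at 1 of 100 3′ untranslated summits. Among all autosomal summits 90 of 4848 had it, 1.86%, so each share lies near that of the whole list with an interval that includes it. The coding pair was unc-42 and C26C6.8. A match of letters is a description and not a bound site. GC content within 50 bp had a median of 40.6% at coding summits, 41.6% at 5′ untranslated and 35.6% at 3′ untranslated summits, against 41.6% over all autosomal summits.

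Coding exons held few summits for their size. They make up 25.7% of autosomal bases (21.2 Mb) and held 2.25% of autosomal summits (exact 95% interval 1.85 to 2.71), or 5.14 summits per Mb. The 5′ untranslated exons make up 1.44% of bases (1.19 Mb) and held 3.69% of summits, 150.4 per Mb. The 3′ untranslated exons make up 3.28% of bases (2.70 Mb) and held 2.06% of summits, 36.98 per Mb. The density over all autosomal sequence was 58.7 summits per Mb, so only the 5′ untranslated exons stood above it. The share of summits that were exonic ran from 6.01% on chromosome II (57 of 949) to 10.3% on chromosome I (116 of 1126).

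Exonic peaks often reached past the exon. A width of exactly 390 bp was recorded for 98 of the 109 coding-exon peaks. A peak wider than its exon must reach past it, so the coding shares largely restate exon length against recorded width. In the median coding-exon peak 56.4% of the bases were coding, in 46 of the 109 peaks under 50% were, and in 9 at least 90% were. The median coding summit lay 55 bp from the nearer edge of an exon, the median exon was 228 bp long, and 51 of 109 lay within 50 bp of an edge. In exons this short many positions lie near an edge. Their share was not worked out, so the count is not read as high or low. Peaks at 5′ untranslated summits had a median of 54.9% untranslated and 5.38% coding bases. Those at 3′ untranslated summits had 77.8% and 5.77%. Moving 300 bp downstream along the gene from a coding summit, 56.0% of positions were intron and 28.4% coding. At the same distance past a 3′ untranslated summit 46% were intergenic.

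**Figure D1:**
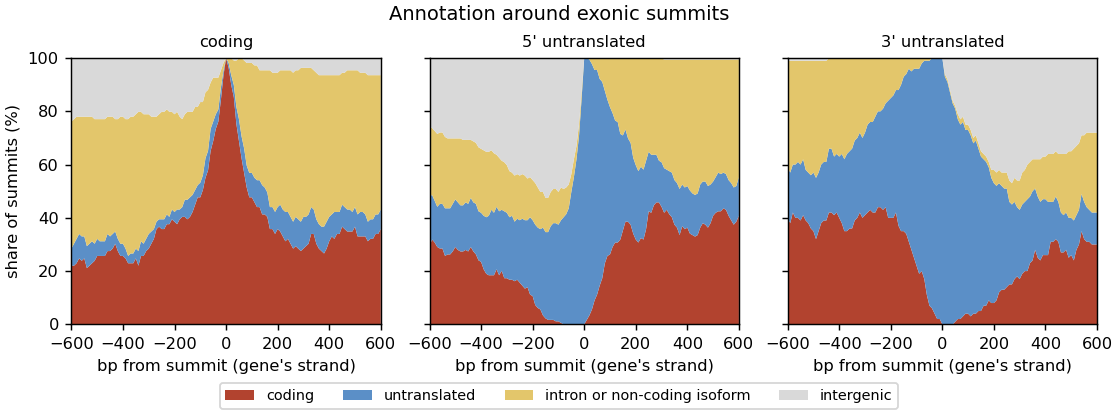
Share of exonic summits (vertical axis, %) whose base at each distance from the summit (horizontal axis, bp along the strand of the gene) is coding, untranslated, intron or intergenic, for the 109 coding, 179 5′ untranslated and 100 3′ untranslated summits. At 300 bp downstream of coding summits 28.4% of bases were still coding, and intergenic sequence lay mostly upstream of 5′ untranslated and downstream of 3′ untranslated summits.

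Coding-exon summits were weak. Signal is the peak caller's own value per peak in the pooled list, as deposited, on a scale the files do not state. It ran from 58.7 to 996 at coding summits around a median of 84.8, from 58.8 to 632 at 5′ untranslated summits around 111.4, and from 58.8 to 623 at 3′ untranslated summits around 99.5. Summits in no exon, which here means no exon of a protein-coding gene, had a median of 122. These 4453 lay in introns of protein-coding genes or between such genes, and exons of other kinds of gene were not set apart. The median of all autosomal summits was 119.75, and by construction 50% lay above it. Of the coding summits 27 of 109 did, or 24.8% (exact 95% interval 17 to 34), against 51% of summits in no exon, a difference of −26.2 percentage points (Fisher's exact test, two-sided, adjusted p = 3.1e-07 by Benjamini-Hochberg over 6 tests). In each replicate alone the share was about as low, 22.1% by the signal of replicate 1 and 23.4% by that of replicate 2.

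The untranslated classes stood nearer to the rest. Above the median were 82 of 179 5′ untranslated summits, 45.8% (38.4 to 53.4), a difference of −5.17 points from summits in no exon (Fisher's exact adjusted p = 0.29). Of the 3′ untranslated summits 39 of 100 were, 39% (29.4 to 49.3), a difference of −12 points (Fisher's exact adjusted p = 0.059, unadjusted 0.0198), which did not pass. With the signals of replicate 2 alone this share was 35.4% and passed (Fisher's exact adjusted p = 0.0065), while with those of replicate 1 alone it was 38.8% and did not (Fisher's exact adjusted p = 0.056). The test treats peaks as independent, although a few share a locus, and compares peaks and not samples.

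**Figure D2:**
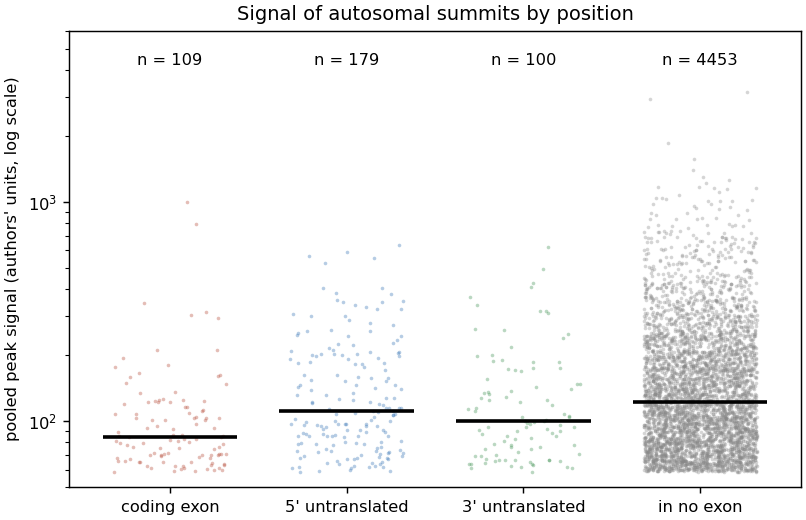
Pooled signal of each autosomal summit (vertical axis, authors' units, log scale) in coding exons, 5′ untranslated exons, 3′ untranslated exons and no exon; each point is 1 summit and the bar is the median. The medians were 84.8, 111.4, 99.5 and 122, and only 2 coding summits exceed a signal of 500.

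By classes of 20% of all autosomal summits, from the strongest to the weakest, coding summits numbered 6, 11, 23, 25 and 44. The 5′ untranslated summits numbered 32, 36, 30, 42 and 39, and the 3′ untranslated summits numbered 13, 15, 19, 24 and 29. The trend went on below the IDR threshold. In the relaxed pooled list coding summits made up 0.777% of autosomal summits at ranks 1 to 1000, 3.49% at ranks 3001 to 6290, 4.38% at ranks 6291 to 10000 and 8.50% at ranks 20001 to 30000. The share of 5′ untranslated summits went the other way, from 3.50% in the first of these classes and 4.01% at ranks 3001 to 6290 to 1.21% in the last. Entries below the threshold were deposited as peaks and background together.

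**Figure D3:**
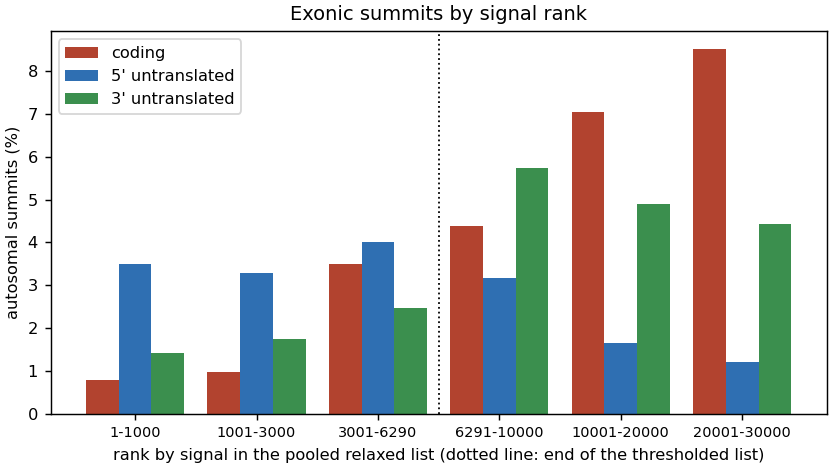
Share of autosomal summits (vertical axis, %) in coding, 5′ untranslated and 3′ untranslated exons, by rank of signal in the pooled relaxed list of 30000 peaks (horizontal axis); the dotted line marks the end of the thresholded list. Coding summits grow from 0.777% in the strongest class to 8.50% in the weakest, while 5′ untranslated summits fall to 1.21%.

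Most exonic peaks were listed with the same width. A width of exactly 390 bp was recorded for 98 of the 109 coding-exon peaks, 89.9%, against 68.5% of peaks at summits in no exon. It was recorded for 68.2% of 5′ untranslated and 75% of 3′ untranslated peaks. A stronger thresholded summit within 500 bp was present for 6 coding, 14 5′ untranslated and 4 3′ untranslated summits, 6.19% of all exonic summits, beside 3.89% of summits in no exon.

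Most exonic summits were found in each replicate. Over all autosomal summits 94.4% had a summit within 100 bp in both relaxed replicate lists. The share was 102 of 109, or 93.6%, for coding summits (exact 95% interval 87.2 to 97.4), 165 of 179, or 92.2%, for 5′ untranslated (87.2 to 95.7) and 97 of 100 for 3′ untranslated (91.5 to 99.4). Summits in no exon had 94.4% (4205 of 4453), and no class passed the test against them (Fisher's exact adjusted p = 0.67, 0.29 and 0.45). The thresholded list was itself chosen for agreement between replicates, so a high share is built into it. From the strongest to the weakest 20% of autosomal summits, coding summits were in both lists in 100, 100, 91.3, 96 and 90.9% of cases, and summits in no exon in 99, 98.1, 95.5, 92.3 and 86.7%. When only the 6290 strongest peaks of each replicate were counted, which is a cut on signal, 56.0% of coding, 74.9% of 5′ untranslated, 69% of 3′ untranslated and 77.2% of summits in no exon were found in both. Such a cut leaves out weak summits by construction, and coding summits had the lowest median signal, so these shares say nothing of replicate presence apart from signal.

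For 24 exonic summits at least 1 replicate list held no summit within 100 bp. They were mostly weak, with pooled signals from 58.7 to 153 around a median of 75.9. By that distance, 15 were found in replicate 2 only, 8 in replicate 1 only, and 1, at ZK973.8, in neither. Some had a summit farther off. With 200 bp allowed, both lists held 97.2% of coding, 96.1% of 5′ and 100% of 3′ untranslated summits. Summits in no exon had 98.4%. With 50 bp the shares were 72.5, 77.7, 84 and 80.4%, in the same order. No class passed the test at either distance. In the strongest 20% of autosomal summits all 51 exonic summits were found in both lists, and in the weakest 20%, 89.3% were, beside 86.7% of those in no exon. Where both lists held a summit, coding summits had a median log2 ratio, replicate 2 over replicate 1, of 0.16 with an SD of 0.67. The SD was 0.57 at 5′ untranslated, 0.53 at 3′ untranslated and 0.56 at summits in no exon.

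**Figure D4:**
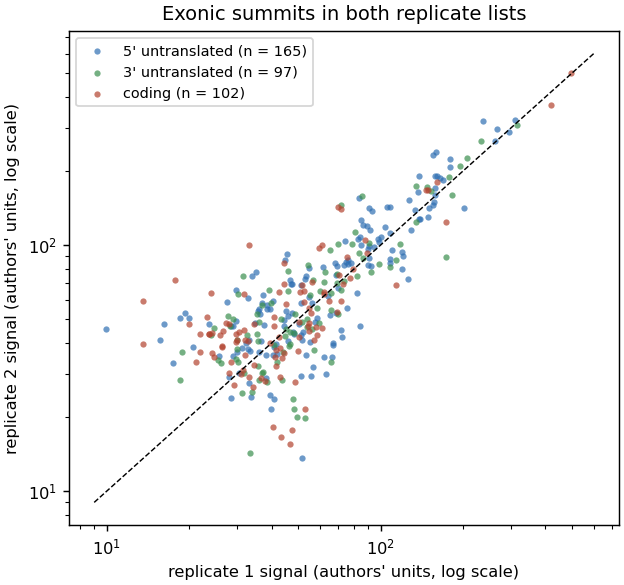
Signal of the 364 exonic summits found in both lists in replicate 1 (horizontal axis) and replicate 2 (vertical axis), both in the authors' units on log scales; the dashed line marks equal signal. The strongest coding summit had signals of 496 and 501, close to the line.

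The 388 summits lay in 370 protein-coding genes, 2.15% of the 17242 on the autosomes. A coding summit was present in 106 genes (0.615%), a 5′ untranslated summit in 172 (0.998%) and a 3′ untranslated summit in 101 (0.586%). A single exonic summit was found in 350 genes, 2 in 19 and 3 in 1, abts-3. Only 3 summits lay in exons of the same class of more than 1 gene, and 8 lay at a base annotated with more than 1 kind of exon, which was then counted as coding before 5′ and 5′ before 3′ untranslated.

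The first exon of at least 1 transcript held 219 of the 388 summits, 56.4% (exact 95% interval 51.3 to 61.4). This was true of 178 of 179 5′ untranslated summits, as their position near the start of the gene implies, and of 0 of 100 3′ untranslated summits. Coding summits were divided: 41 of 109 were in a first exon, 37.6% (28.5 to 47.4), and 68 in a later one. For 35 of the 109 the exon was first in every transcript holding it. The share of exonic or coding bases in first exons was not worked out, so these shares are not read as high or low. The median signal was 85.9 in first exons and 83.5 in later exons, a difference that was not tested. Both lists held 38 of the 41 and 64 of the 68.

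The strongest coding-exon summit of all lay in K05C4.10, a gene known by its sequence name only (I, 14725845 to 14726358, summit 14726071). It had a pooled signal of 996, rank 30 in the whole list, and signals of 496 in replicate 1 and 501 in replicate 2. The summit was in exon 2 of 2, and 38.7% of the peak was coding. It also lay about 100 bp upstream of the 5′ end of sol-2, on the opposite strand, which encodes a CUB-domain partner of the AMPA-type glutamate receptor GLR-1. A further coding summit in exon 1 of K05C4.10 (summit 14725395, signal 305) had signals of 149 and 167 in the replicates and lay 656 bp upstream of sol-2.

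The next strongest lay in sol-1 (I, 7392071 to 7392500, summit 7392261), which also encodes a CUB-domain protein of the GLR-1 receptor complex. Its signal was 792 in the pooled list, rank 60, with 420 in replicate 1 and 372 in replicate 2. It lay 3657 bp downstream of the 5′ end and 2 bp from the edge of exon 7 of 12, which is 58 bp long, and 13.5% of the peak was coding, with no untranslated bases. A weaker coding summit in exon 6 of sol-1 had a signal of 76.4. In both genes the strong peak was mostly non-coding.

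Of the other strong coding summits, 4 were in a first exon of some transcript and within about 100 bp of a 5′ end. T16G1.18 (V, summit 12951375) had a signal of 314, with 147 and 168 in the replicates, and lay 71 bp downstream of its 5′ end. Y18D10A.4 (I, summit 12816009, signal 210) lay 105 bp downstream in a peak that was entirely coding, with 69.9 in replicate 1 and 143 in replicate 2. Y44E3A.1 (I, summit 3338421, signal 210) lay 54 bp downstream, with 71.4 and 140. In these last 2 genes the replicates differed by about the same factor, with replicate 2 higher. Y71G12B.18 (I, summit 1653612, signal 345) lay 100 bp past a 5′ end in exon 2 of 5 of a transcript and the first exon of another, with signals of 161 and 180.

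The homeodomain gene unc-42, a regulator of neuron identity, had 1 coding summit (V, 9765021 to 9765293, signal 295). Its signals were 173 in replicate 1 and 124 in replicate 2. It stood on the edge of exon 5 of 7, 155 bp upstream of an internal 5′ end, and 27.5% of the peak was coding.

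Away from every promoter window, taken as 1000 bp upstream to 200 bp downstream of a protein-coding 5′ end, lay 59 of 109 coding summits, 54.1%. The share was about the same for summits in no exon, 2403 of 4453, so it does not set coding summits apart. Of the 59 coding summits, 55 were in later exons, and the median distance from the 5′ end of the gene was 1293 bp. After sol-1 and B0334.20 (signal 193) the strongest were in uig-1, which encodes an exchange factor for CDC-42, with a pooled signal of 180 and 88.9 and 92.8 in the replicates. In saeg-1, named as a suppressor of activated EGL-4, the signal was 176, with 114 and 68.8. In mpz-1, which encodes a multi-PDZ protein, the signal was 165, in exon 31 of 43, with 75.5 and 89.2. The saeg-1 peak was entirely coding, whereas 53.8% of the uig-1 peak and 40.6% of the mpz-1 peak were. The median signal of these 59 summits was 82.3, that of the 50 coding summits in a promoter window 85.0, and both lists held 56 and 46 of them.

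The 5′ untranslated summits gathered at the very start of genes. The nearest protein-coding 5′ end lay less than 100 bp before the summit for 121 of 179, and 162 were in a promoter window. Of the summits in no exon, 2050 of 4453 were in one. The median distance of the 5′ untranslated summits past the 5′ end of the gene was 32 bp. In 79 of 179 the summit was also in the promoter window of another gene, a median of 331 bp upstream of it, and in 78 of these the other gene lay on the opposite strand, the arrangement in which 5′ ends of neighbours face apart. Position largely fixed this strand, since a gene on the same strand would mostly have had to start inside the gene holding the summit.

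**Figure D5:**
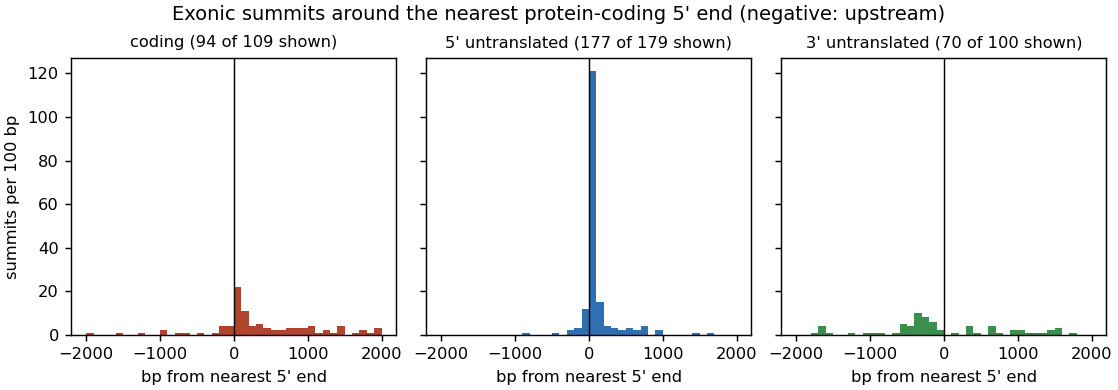
Number of exonic summits per 100 bp (vertical axis) by distance from the nearest protein-coding 5′ end (horizontal axis, bp; negative is upstream), shown within 2000 bp for 94 of 109 coding, 177 of 179 5′ untranslated and 70 of 100 3′ untranslated summits. The 5′ untranslated summits crowd just downstream of the 5′ end, with 121 in the first 100 bp, whereas 38 of the 3′ untranslated summits lie less than 1000 bp upstream of one.

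The strongest 5′ untranslated summit lay in gar-2, a gene for a muscarinic acetylcholine receptor (III, 6317351 to 6317720), 68 bp past the 5′ end. Its signal was 632, rank 130, with 309 and 323 in the replicates. The splicing factor gene rbm-39 (IV, summit 1012651) had a signal of 564, with 267 and 296, and smu-2, a splicing gene known from its genetic tie to mec-8 and unc-52 (II, summit 3482437), had 525, with 262 and 264. The summits lay 27 and 29 bp past the 5′ ends.

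Of the remaining strong 5′ untranslated summits, 4 were in genes with sequence names only. Y73B6BL.29 had a signal of 587, with the summit on the annotated 5′ end itself, and C15C8.5 had 554, at 39 bp. F53F8.6 had 404, at 146 bp, and E02A10.3 had 384, at 162 bp. At mdt-18, which encodes a Mediator subunit, the signal was 403, with 160 and 239, and the summit lay 376 bp upstream of uri-1. A weaker summit of mdt-18 with a signal of 124 lay in the same exon, 175 bp upstream of uri-1. All 8 of the strongest 5′ untranslated summits were in first exons and in both replicate lists.

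In 17 of 179 cases the 5′ untranslated summit was in no promoter window, deep inside a long first exon. At abts-3, which encodes an anion transporter, a first exon of 3612 bp held 3 summits with signals of 352, 153 and 74.4, lying 1495, 2548 and 1695 bp past the 5′ end. The weakest of them had no summit within 100 bp in replicate 2. At egl-30, the gene for the Gq alpha subunit, a first exon of 1636 bp held summits of 244 and 146, at 398 and 601 bp. Replicate 1 had 83.7 and replicate 2 155 at the stronger of these. The proneural gene cnd-1, a NeuroD relative, had a summit of 245 in a first exon of 2789 bp, at 548 bp, with 129 and 115. The median signal of the 17 summits was 114.7, beside 111.1 for the 162 in a promoter window, and 14 of the 17 were in both lists.

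The 3′ untranslated summits were in a last exon in 98 of 100 cases, a median of 2504 bp from the nearest annotated 5′ end of their own gene. In 40 of 100 they lay in the promoter window of another gene, a median of 312.5 bp upstream of it and between 74 and 944 bp. Counting the window of any gene, 41 of 100 were inside one, beside 2050 of 4453 summits in no exon. The 3′ untranslated share was thus not above that of summits in no exon, and the difference was not tested. In all 40 the other gene was on the same strand, so that the end of one gene preceded the start of the next. Position largely fixed this, since a gene on the opposite strand would have had to start within or before the gene holding the summit. The median signal was 115.1 at these 40 and 90.7 at the other 60, a difference that was not tested. All 41 of the 3′ untranslated summits in any promoter window were found in both lists, and 56 of the 59 outside were.

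The strongest 3′ untranslated summit lay in mrpl-44, a gene for a mitochondrial ribosomal protein (III, 9084457 to 9084778). Its signal was 623, rank 133, with 315 and 307 in the replicates, and the peak lay entirely in untranslated exon. The next was at iff-2, a gene for translation factor eIF5A (II, summit 8559403), with 491 in the pooled list and 234 and 264 in the replicates, 28 bp from the exon's edge. At lpl-1 (IV, summit 9092240) the signal was 428, with 207 and 226. None of these 3 summits was in a promoter window of another gene.

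In the next 3 genes the end of one gene ran into the upstream region of the next. The summit in C04G6.4 (II, signal 407) lay 512 bp upstream of dsh-2, a Dishevelled gene of Wnt signalling. That in exos-4.2, an RNA exosome subunit gene (III, signal 368), lay 330 bp upstream of arx-4, which encodes a subunit of the Arp2/3 complex. That in the frataxin gene frh-1 (II, signal 340) lay 217 bp upstream of ptp-2, which encodes a tyrosine phosphatase. The last of the 8 strongest were the helicase gene chl-1 (318) and the potassium channel gene twk-49 (317). Both lists held all 8.

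Groups of genes were then read against the 2.15% of autosomal protein-coding genes that had an exonic summit. Ribosomal protein genes had 0 of 80 (exact 95% upper bound 4.51%). A summit of some kind lay in the promoter window of 63 of the 80. The share of all genes with such a summit was not worked out, so that count is not read as high or low. Histone genes had 0 of 75 (upper bound 4.8%), cuticle collagen and body shape genes 0 of 154 (2.37%) and germline genes 0 of 44 (8.04%). Chemoreceptor genes had 2 of 1143, 0.175%, namely sra-11 (coding, signal 82.5) and sra-6 (5′ untranslated, 67.5, with no summit within 100 bp in replicate 2). Nuclear hormone receptor genes had 4 of 247, 1.62%, led by nhr-256 (132), nhr-47 (110) and nhr-95 (88.7).

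Regulators of development and neurons came next. Homeobox genes had 5 of 71, 7.04% (exact 95% interval 2.33 to 15.7), led by the ONECUT gene ceh-38 (5′ untranslated, 350, with 161 and 190 in the replicates, 4 bp past the 5′ end), unc-42 and ceh-88 (3′ untranslated, 189). Genes for basic helix-loop-helix factors had 1 of 31, cnd-1. Pan-neuronal genes had 1 of 21, a coding summit in unc-33, a gene of axon growth (123). A promoter-window summit was present for 18 of the 21, again with no share over all genes to set beside it. Cell junction and adhesion genes had 3 of 51, lad-2 (5′ untranslated, 94.4), par-6 (3′ untranslated, 90) and the cadherin gene cdh-4 (coding, 79.0).

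Housekeeping groups followed. Genes for translation factors and tRNA synthetases had 4 of 73, with iff-2 strongest, then eef-1B.1 (5′ untranslated, 91.1) and eif-1.A (3′ untranslated, 86.9). RNA-binding and splicing regulators had 2 of 60, the heterochronic gene lin-28 (5′ untranslated, 223, 55 bp past the 5′ end) and hrpa-1 (3′ untranslated, 134). Heat shock and chaperone genes had 2 of 56, dnj-23 (172) and hsp-12.3 (169), both 3′ untranslated and both in the promoter window of the next gene. Muscle structure genes had 2 of 32, the tropomyosin gene lev-11 (94.1) and unc-73 (83.1), the latter an exchange factor better known from axon guidance. Cell cycle genes had 1 of 53, skr-1 (98.3), proteasome subunits 1 of 33, pbs-6 (112.1), and small GTPases 1 of 42, arf-5 (78.2). All 17 lists held 0 to 5 genes with an exonic summit. The exact interval of the chemoreceptors, 0.0212 to 0.631%, lay below the background share and that of the homeobox genes just above it, and no test of the lists was made. The intervals are not adjusted for the 17 lists, so an interval just off the background share can arise by counting error alone.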

How the data were processed

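Peak lists on ce11 were used as deposited. Notes in the deposit say that the authors made a relaxed list per replicate (2 replicates) and from both together against a control, and that an IDR step then gave the thresholded list. Aligner and peak caller: not given in the sources used here. Peaks carry a signal value as deposited, on a scale not stated, and a deposited −log10 q, which was not used.

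Summits were placed on WBcel235 exons (Ensembl release 115). Motifs and printed windows were read from the RefSeq sequence of the same assembly. The stop codon was counted as coding. Distance from the 5′ end of a gene was taken to the nearest 5′ end among its coding transcripts, internal starts included. Shares carry exact Clopper-Pearson 95% intervals, which cover counting error only. Fisher's exact tests were two-sided with Benjamini-Hochberg adjustment over 6 tests and a threshold of 0.05, checked on simulated data. Python 3.11.15, SciPy 1.17.1 and pandas 2.3.3 were used.

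The members, the 17 gene lists and the tests were chosen with earlier results of these data known. Named genes are those of the 8 strongest summits per class, genes with 3 or more exonic summits, and up to 3 members per list with the strongest summits; the other genes named were chosen after their values were seen. The 17 mitochondrial and 1425 X peaks and the ce10 lists were left out.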

Additional observations from a re-analysis of the deposited data

How the results depend on the processing

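No paired analysis was possible because both replicates belong to the same group. Of 67 alternative values, 54 kept their direction, their side of the threshold or their size. With at least 50% of the peak required in the class, 103 peaks were 5′ untranslated. Among the 3000 strongest peaks 21 coding, 78 5′ untranslated and 38 3′ untranslated summits were left, and outside promoter windows 59, 17 and 59, by construction fewer. Leaving out a replicate gave 98 to 109 coding, 170 to 178 5′ untranslated and 99 to 115 3′ untranslated summits. These were counted among the 6290 strongest peaks of the replicate kept, a list cut to the same size on signal, with no IDR step. With the longest coding transcript of each gene, 120 summits were 5′ untranslated in place of 179. The share of coding summits in both lists was 56.0% when only the strongest peaks of each replicate counted, a cut on signal that leaves out weak summits by construction.

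The share of 3′ untranslated summits above the median signal, 39%, was 35.4% to 38.8% with a replicate left out, 36.8% with the longest coding transcript of each gene and 38.5% without summits near a stronger one. It passed with replicate 1 left out and in the last 2 of these settings, which were chosen after seeing the data, and not with replicate 2 left out, outside promoter windows (33.9%) or for the share among the strongest 20% of summits (13%). The cause was not tested. The first-exon share was 48.3% with the longest coding transcript and 62.8% among the 3000 strongest peaks. The annotation tags no canonical transcript, so that alternative was not run. The low share of coding summits above the median passed in every setting tried.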

Other observations

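A further 7 autosomal summits lay in exons of non-coding transcripts of protein-coding genes and were kept out of the classes above. They were found in both replicate lists. The strongest was at ash-2, a gene of histone methylation, with a signal of 677, and C23H3.9 had 2, with signals of 566 and 204. The others were at pir-1 (238), chat-1 (151), D2085.7 (146) and lntl-1 (69.5).

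Annotated genes for small RNAs lay within 100 bp of 5 of the 388 exonic summits, 1.29%, and of 92 of all 4848 autosomal summits. The exonic share was not above that of the whole list. Those at exonic summits were a tRNA gene at F32B4.8 (coding, signal 116), a snoRNA gene at rhgf-2 (coding, 86.6), snRNA genes at dhc-4 (coding, 80.0) and hsp-12.3 (3′ untranslated, 169), and a microRNA gene at F21A9.1 (5′ untranslated, 63.8). A tRNA gene lay within 100 bp of 35 of all 4848 autosomal summits.

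Genes known by a sequence name only made up 44.5% of autosomal protein-coding genes. They were 42 of the 106 genes with a coding summit (39.6%), 74 of 172 with a 5′ untranslated summit (43.0%) and 24 of 101 with a 3′ untranslated summit (23.8%). Of the 9 coding-exon peaks that were at least 90% coding, 7 lay outside every promoter window, among them ape-1 (signal 159, in exon 7 of 8, with 59.7 in replicate 1 and 97.3 in replicate 2).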
